A study of Homo sapiens with 8 samples.

Results

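WT1, PAX2, PAX8, TCF21, LMX1B, FOXC1, FOXC2, DACH1 and LHX1 are 9 transcription factors of the podocyte and of the earlier nephron. They were chosen by name and are 9 of the 58395 genes in the count table. RNA was sequenced from AB8 cells, a human line derived from podocytes, the filtering epithelial cells of the kidney glomerulus. In 4 induced libraries (Dox) the cells carried the construct pIND21_hCrb2+GFP_S267A and had been given doxycycline for 48 h. In 4 non-induced libraries (woDox) the same cells, with the same construct, had not been induced. All 8 libraries therefore carry the construct for CRB2 with the S267A change and GFP, at 3 to 8 passages after modification. Libraries given doxycycline without the construct were not analysed here, so the drug and the transgene cannot be told apart. The labels do not say whether the modified line is 1 clone or whether libraries of 1 group came from separate cultures, and p-values then measure only the spread between these libraries.

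The nephron forms from mesenchyme that turns into epithelium, and podocytes are 1 of its end points. WT1, a zinc finger protein, acts both in the progenitors and in mature podocytes, where it drives many genes of the filtration barrier. PAX2 and PAX8 are paired box proteins of the early nephron and of tubules and are normally silenced as podocytes mature, while LHX1, a LIM homeodomain protein, acts in the early renal vesicle. TCF21, LMX1B, FOXC1 and FOXC2 act in the differentiating and mature podocyte, and DACH1 is a nuclear cofactor that podocytes express.

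Library totals ran from 19008593 to 23081616 counted reads in induced cells and from 16829454 to 21731488 in non-induced cells, with 23636 to 24545 genes detected. A count of 0 allows up to 3 reads, or 0.131 to 0.179 CPM (read counts scaled to library size), for counting error only. CRB2, the induced gene, averaged 3766 ± 1363 CPM in induced and 20.6 ± 8.47 CPM in non-induced cells (SD, n = 4 each). Both libraries numbered 1 stood apart from libraries 2 to 4 of their group, and the factors' values in them are given separately below.

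The defining podocyte markers NPHS1 and PTPRO were near 0. Over all 8 libraries NPHS1 (nephrin) had 3 reads and the receptor phosphatase PTPRO had 16. Of 13 podocyte markers, 7 had enough reads to be tested, with most reads on the actin crosslinker ACTN4 and the adhesion protein KIRREL1. The summed level of all 13 was 1693 to 1925 CPM in induced and 1560 to 1815 CPM in non-induced cells. Parietal epithelial markers (the lining of Bowman's capsule) were expressed more fully, with 7 of 8 tested and a summed level of 1095 to 1311 CPM in induced and 1182 to 1447 CPM in non-induced cells. The markers therefore go against a mature podocyte label. In bulk RNA, fewer cells of a type and less RNA per cell cannot be told apart, and the part of cell mixture in the results below was not tested.

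RefSeq promoter windows on GRCh38.p14 were found for 7 of the 9 factors, in 11 windows. FOXC2 and LHX1 are named only. The first windows of PAX2, PAX8 and DACH1 are printed because these are the factors whose levels differed in at least 1 test below. Each runs 5′ to 3′ over the 250 bases before the start, with CG dinucleotides in capitals. The PAX2 window is chr10:100735146-100735395 on the plus strand, that of PAX8 is chr2:113278922-113279171 on the minus strand, and that of DACH1 is chr13:71867205-71867454 on the minus strand.
PAX2: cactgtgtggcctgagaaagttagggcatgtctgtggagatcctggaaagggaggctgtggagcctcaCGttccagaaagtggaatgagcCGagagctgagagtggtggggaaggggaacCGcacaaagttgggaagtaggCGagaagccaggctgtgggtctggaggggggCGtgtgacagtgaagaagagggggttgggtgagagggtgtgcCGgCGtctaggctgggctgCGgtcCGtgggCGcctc
PAX8: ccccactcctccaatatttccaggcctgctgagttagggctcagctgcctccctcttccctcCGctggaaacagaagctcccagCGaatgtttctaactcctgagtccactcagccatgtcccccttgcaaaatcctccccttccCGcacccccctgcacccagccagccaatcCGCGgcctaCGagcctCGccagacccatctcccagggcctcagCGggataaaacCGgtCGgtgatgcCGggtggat
DACH1: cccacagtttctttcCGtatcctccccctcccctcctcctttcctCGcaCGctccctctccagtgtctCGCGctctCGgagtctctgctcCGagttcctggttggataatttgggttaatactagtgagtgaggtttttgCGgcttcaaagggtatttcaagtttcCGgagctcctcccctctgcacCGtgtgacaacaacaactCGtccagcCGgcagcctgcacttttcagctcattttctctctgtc
These windows hold 10, 11 and 12 CG dinucleotides, close to the median of 11 over 35116 RefSeq promoter windows of the same length. FOXC1 and LMX1B stood apart with 37 and 38, the first start of WT1 had 19 and TCF21 had 5. The WT1 and EGR motif GCGTGGGNG, searched on both strands, matched 0 of the factors' 11 windows and 2.51% of all windows. The GC box GGGCGG matched 4 of the 11 windows and 42.6% of all windows. A match is a description of letters, and no reading of these cells' chromatin was made.

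The 9 factors spanned a wide range of levels when compared per length, as RPKM, the CPM divided by the kilobases of merged exons. PAX8 was the most abundant in every library, at 48.8 ± 7.92 RPKM in induced and 61.8 ± 3.57 in non-induced cells (SD, n = 4 each). LHX1 followed at 9.23 ± 5.11 and 9.38 ± 4.14 RPKM in induced and non-induced cells. The ranges of PAX8 and LHX1 did not overlap in either group.

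The range of LHX1 overlapped that of FOXC2 in induced cells only. FOXC2 was at 4.33 ± 1.68 RPKM in induced and 4.72 ± 1.74 in non-induced cells. PAX2 lay beside it at 3.53 ± 0.901 RPKM in induced and 2.74 ± 0.708 in non-induced cells, and the ranges of FOXC2 and PAX2 overlapped in both groups. With the longest transcript as the length, PAX2 stood above FOXC2 in induced cells only.

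FOXC1, WT1, TCF21, DACH1 and LMX1B were lower. FOXC1 had 1.29 ± 0.5 RPKM in induced and 1.48 ± 0.575 in non-induced cells, WT1 had 0.618 ± 0.357 and 0.774 ± 0.409, and TCF21 had 0.278 ± 0.0614 and 0.206 ± 0.0905, each given for induced and then non-induced cells. The range of FOXC1 overlapped that of PAX2 in non-induced cells only. Ranges of FOXC1 and WT1, and of WT1 and TCF21, overlapped in both groups. DACH1 had 0.0716 ± 0.0196 RPKM in induced and 0.012 ± 0.00979 in non-induced cells, and LMX1B had 0.00204 ± 0.00408 and 0.00457 ± 0.00535.

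**Figure D1:**
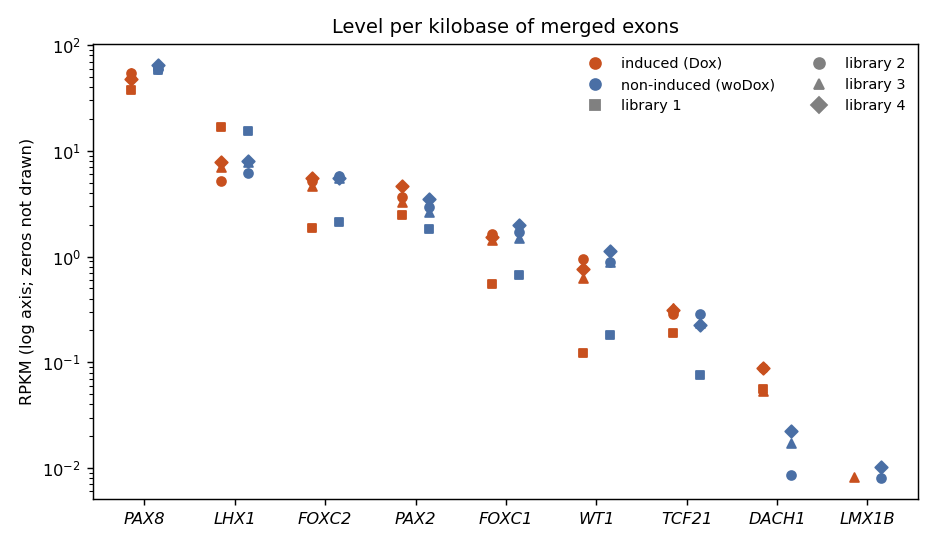
RPKM of the 9 factors (log axis, zeros not drawn) in 4 induced (orange) and 4 non-induced (blue) libraries, with a symbol per library number. PAX8 lies at 38 to 54.9 RPKM in induced and 58.1 to 65.4 in non-induced cells, above every other factor.

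PAX8 fell and PAX2 rose in induced cells once libraries of the same number were compared with each other. That fit adds the replicate number as a block to edgeR's quasi-likelihood test. It called 2 of the 7 factors that passed the filter on low counts, 1 higher and 1 lower, at a false discovery rate of 0.05 over all tested genes. The same fit called 13.8% of the 15637 tested genes, 7.51% higher and 6.29% lower, so about 0.97 of 7 factors would be called at the background share. Without the block edgeR called 0 of the 7, against 0.0384% of all genes, and 1 factor, PAX8, had an unadjusted p under 0.05. DESeq2 without a block also called 0 of the 7.

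PAX8 (ENSG00000125618, chromosome 2, 113215997 to 113278950, minus strand) had 281.2, 403.9, 406.2 and 354.4 CPM in induced libraries 1 to 4, against 430.1, 440.1, 484.2 and 475.6 CPM in non-induced libraries 1 to 4. Every induced library lay below every non-induced one, with the gap narrowest between induced library 3 and non-induced library 1. Such a separation downwards was seen in 3.22% of tested genes. The mean was 361.4 ± 58.6 CPM in induced and 457.5 ± 26.4 CPM in non-induced cells (SD, n = 4 each).

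The log2 change of PAX8 was -0.35 with the block (SE 0.0805, edgeR adjusted p = 0.041) and -0.34 without it (SE 0.113, adjusted p = 0.384). The exact two-sided permutation test over the 8 libraries gave p = 0.0286, the smallest that 70 labelings can give, and 9 such unadjusted tests were made, 1 per factor. Within pairs the exact permutation test gave p = 0.125, the smallest that 4 pairs can give. Within the 4 same-numbered pairs PAX8 differed by -0.61, -0.12, -0.25 and -0.42 on the log2 scale, and a lower value in all 4 pairs was seen in 17.0% of tested genes. The blocked call was lost without pair 3 (adjusted p = 0.0621) or pair 4 (adjusted p = 0.197) and kept without pair 1 (0.00864) or pair 2 (0.00115). Without both libraries numbered 1, edgeR called PAX8 also without a block, at a log2 change of -0.27 (adjusted p = 0.0293). That fit called 543 of 15769 tested genes, against 6 genes with all libraries. With the block, 2 of 7 factors were called without the libraries numbered 1, against 10.9% of tested genes.

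PAX2 (ENSG00000075891, chromosome 10, 100735603 to 100829941, plus strand) had 15.5, 23.1, 20.5 and 29.05 CPM in induced libraries 1 to 4, against 11.5, 18.3, 16.5 and 22.1 CPM in non-induced libraries 1 to 4. The groups overlapped, yet the induced library was the higher of every pair, by 0.43, 0.33, 0.31 and 0.39 on the log2 scale. A higher value in all 4 pairs was seen in 18.6% of tested genes. In both groups library 1 was lowest and library 4 highest.

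PAX2 averaged 22.0 ± 5.63 CPM in induced and 17.1 ± 4.42 CPM in non-induced cells (SD, n = 4 each). Its log2 change was 0.36 with the block (SE 0.0634, edgeR adjusted p = 0.00208) and 0.37 without it (SE 0.23, adjusted p = 0.705). The blocked call held without each pair in turn, at adjusted p = 0.00523 to 0.0221. The exact permutation test gave p = 0.257 over all libraries and p = 0.125 within pairs, the smallest that 4 pairs can give.

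The opposite directions changed the balance between these related genes. The ratio of PAX8 to PAX2, per length, was 15.3, 14.8, 16.7 and 10.3 in induced libraries 1 to 4, against 31.6, 20.2, 24.7 and 18.1 in non-induced libraries 1 to 4. Every induced ratio was below every non-induced one. This ratio was computed because PAX2 and PAX8 had moved apart, so it is a description.

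An antisense gene, PAX8-AS1, shares 685 exon bases with PAX8. It had 0.413 ± 0.281 CPM in induced and 0.785 ± 0.166 CPM in non-induced cells, a log2 change of -0.96 with the block (adjusted p = 0.0858). Whether the authors counted by strand was not stated in any source used, so reads on shared bases cannot be assigned with certainty. The level of PAX8-AS1 was far below that of PAX8.

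**Figure D2:**
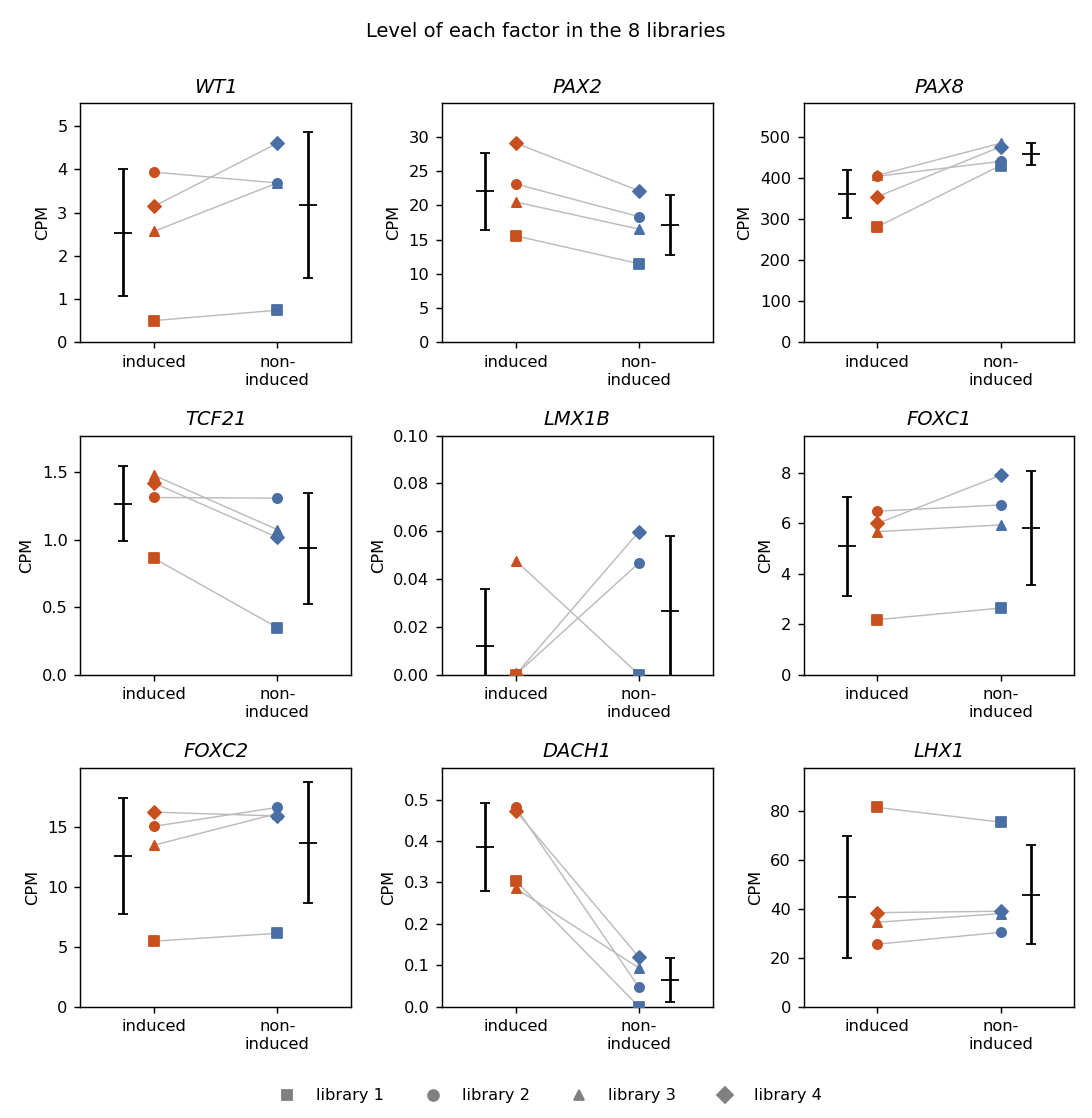
CPM of each factor in the induced (left, orange) and non-induced (right, blue) libraries, with grey lines joining libraries of the same number and black bars for mean ± SD (n = 4 each). In 4 of 4 pairs the induced library is higher for PAX2, TCF21 and DACH1 and lower for PAX8 and FOXC1, while the lines of WT1, LHX1, FOXC2 and LMX1B do not all share a direction.

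DACH1 (ENSG00000276644, chromosome 13, 71437966 to 71867192, minus strand) was barely detected and was higher in induced cells. It had 6, 11, 6 and 9 reads in induced libraries 1 to 4, against 0, 1, 2 and 2 reads in non-induced libraries 1 to 4. All induced libraries lay above all non-induced ones, which was the case upwards for 2.31% of the 31603 genes with at least 1 read. That set includes genes with too few reads to separate in this way. Summed over libraries there were 32 reads in induced and 5 in non-induced cells, a depth-adjusted ratio of 6.17 with a 95% counting interval of 2.39 to 20.3. This interval pools the libraries of a group and leaves out the spread between them. Every non-induced library lay under the 3 reads that a count of 0 allows, so the size of any DACH1 fold is uncertain.

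DACH1 did not pass the filter on low counts. The exact permutation test gave p = 0.0286 over the 8 libraries and p = 0.125 within pairs, the smallest value each can give. With no filter its log2 change was 2.50 (edgeR adjusted p = 0.205). With the block as well it was 2.49 (SE 0.639, adjusted p = 0.00224), in a fit added after the data were seen that called 4.3% of genes higher. Only this fit called DACH1. For PAX8 and PAX2 its edgeR adjusted p-values were 4.95e-16 and 2.01e-05, far below the 0.041 and 0.00208 of the filtered blocked fit. For WT1, TCF21, FOXC1, FOXC2 and LHX1 they were larger than in the filtered blocked fit. The intronic pseudogene H3F3BP1 inside DACH1 had 4 reads in induced and 5 in non-induced cells.

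TCF21 (ENSG00000118526, chromosome 6, 133889138 to 133895553, plus strand), a basic helix-loop-helix factor of podocytes and stroma, had 0.861, 1.31, 1.48 and 1.42 CPM in induced libraries 1 to 4, against 0.348, 1.31, 1.07 and 1.02 CPM in non-induced libraries 1 to 4. Pairs differed by 1.10, 0.01, 0.43 and 0.44 on the log2 scale, with pair 2 level and pair 1 widest. The log2 change was 0.44 with the block (SE 0.238, edgeR adjusted p = 0.244) and 0.43 without it (SE 0.358, adjusted p = 0.799). TCF21 thus did not pass either fit, at 7 to 31 reads a library. The antisense gene TARID shares 1383 exon bases with TCF21 and had 13 reads in all 8 libraries.

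WT1 (ENSG00000184937, chromosome 11, 32387775 to 32435630, minus strand) had 0.506, 3.94, 2.57 and 3.15 CPM in induced libraries 1 to 4, against 0.746, 3.69, 3.69 and 4.61 CPM in non-induced libraries 1 to 4. Library 1 was by far the lowest of each group, at 10 and 15 reads, and the groups overlapped. The log2 change was -0.32 with the block (SE 0.164, edgeR adjusted p = 0.211) and -0.31 without it (SE 0.619, adjusted p = 0.94). The difference was negative in 3 of 4 pairs, and without induced library 1 the unblocked value was 0.02. WT1-AS, which overlaps WT1 by 113 bases, had 10 reads in induced and 15 in non-induced cells.

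FOXC1 and FOXC2, forkhead factors needed for podocyte differentiation in mice, did not pass either fit. FOXC1 (ENSG00000054598, chromosome 6) had 2.18, 6.47, 5.67 and 5.99 CPM in induced libraries 1 to 4, against 2.64, 6.72, 5.93 and 7.90 CPM in non-induced libraries 1 to 4. FOXC2 (ENSG00000176692, chromosome 16) had 5.47, 15.05, 13.5 and 16.2 CPM in induced libraries 1 to 4, against 6.12, 16.6, 16.1 and 15.9 CPM in non-induced libraries 1 to 4. Both factors were lowest in library 1, and the groups overlapped. FOXC1 was lower in the induced library of all 4 pairs, at -0.27, -0.05, -0.06 and -0.39 on the log2 scale, and FOXC2 in 3 of 4 pairs. A lower value in all 4 pairs was seen in 17.0% of tested genes.

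The log2 change with the block was -0.18 for FOXC1 (SE 0.112, edgeR adjusted p = 0.307) and -0.13 for FOXC2 (SE 0.0781, adjusted p = 0.294). Without induced library 1 their unblocked values were 0.06 and 0.12, against -0.19 and -0.12 with all libraries. The ratio of FOXC2 to FOXC1 per length was 3.15 to 3.67 in induced and 2.73 to 3.68 in non-induced libraries, so the pair kept a similar balance in all 8. FOXC2-AS1, which shares 145 exon bases with FOXC2, had 62 reads in induced and 70 in non-induced cells.

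LMX1B (ENSG00000136944, chromosome 9), the LIM homeodomain factor mutated in nail-patella syndrome, had 1 read in induced cells, in library 3. It had 2 reads in non-induced cells, 1 each in libraries 2 and 4. No fold is given, since both groups were at or under the limit that a count of 0 allows.

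LHX1 (ENSG00000273706, chromosome 17, 36936785 to 36944612, plus strand) had 81.6, 25.6, 34.6 and 38.5 CPM in induced libraries 1 to 4, against 75.6, 30.4, 38.1 and 39.1 CPM in non-induced libraries 1 to 4. Library 1 was the highest of both groups. The log2 change was -0.06 with the block (SE 0.057, edgeR adjusted p = 0.529) and -0.02 without it (SE 0.399, adjusted p = 0.995). The unblocked value was 0.33 without non-induced library 1, and 0.17, 0.08 or 0.04 without induced library 2, 3 or 4.

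LHX1-DT is a non-coding gene that starts 124 bases from LHX1 on the other strand, with no shared bases. It had 21.5, 5.77, 7.95 and 9.56 CPM in induced libraries 1 to 4, against 20.3, 6.44, 9.10 and 10.2 CPM in non-induced libraries 1 to 4. Its reads were 0.226 to 0.264 times those of LHX1 in induced and 0.212 to 0.269 times in non-induced libraries. The divergent transcript thus followed LHX1 from library to library, with library 1 again highest in both groups.

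**Figure D3:**
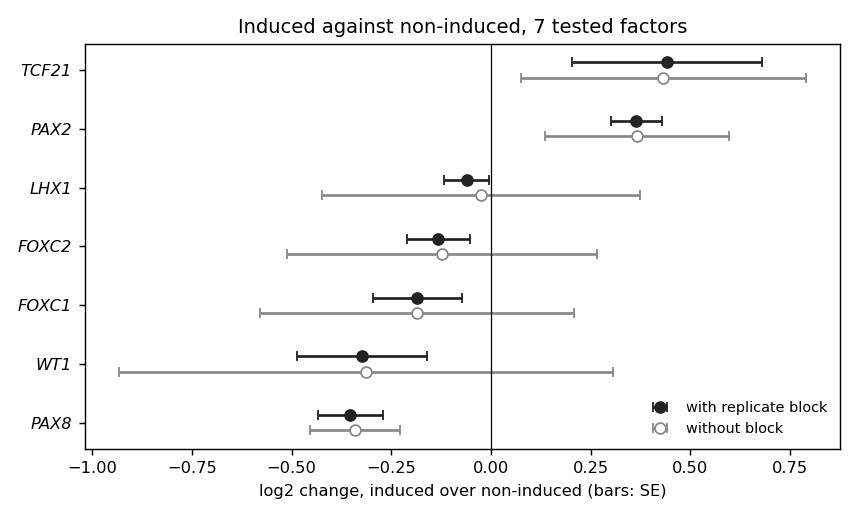
Log2 change, induced over non-induced, of the 7 tested factors with the replicate block (filled) and without it (open), with bars of 1 SE. PAX2 at 0.36 and PAX8 at -0.35 are the blocked values past the threshold, and the open bars are wider for all 7.

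Levels of WT1, PAX2, TCF21, FOXC1, FOXC2 and LHX1 differed more between library 1 and the others of each group than between the groups. For PAX8 this held in induced cells only. WT1 in library 1 was 0.157 times the mean of libraries 2 to 4 in induced cells and 0.187 times in non-induced cells. FOXC1 was at 0.360 times in induced and 0.385 times in non-induced cells, and FOXC2 at 0.366 and 0.377 times. LHX1 went the other way, at 2.48 times in induced and 2.11 times in non-induced cells.

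Thus 3 of 7 tested factors were more than 2-fold lower in library 1 of both groups, against 3.33% of all tested genes, and 1 of 7 more than 2-fold higher, against 1.75%. PAX2 (0.642 times in induced, 0.605 in non-induced) and PAX8 (0.724 and 0.922) moved less. On the log2 scale the library 1 difference of PAX2 was -0.62 in induced and -0.71 in non-induced cells, against 0.37 between the groups. TCF21 was at 0.614 times in induced and 0.307 times in non-induced cells, past 2-fold in the non-induced group only. The labels do not say how library 1 differed, and its number is shared by both groups.

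**Figure D4:**
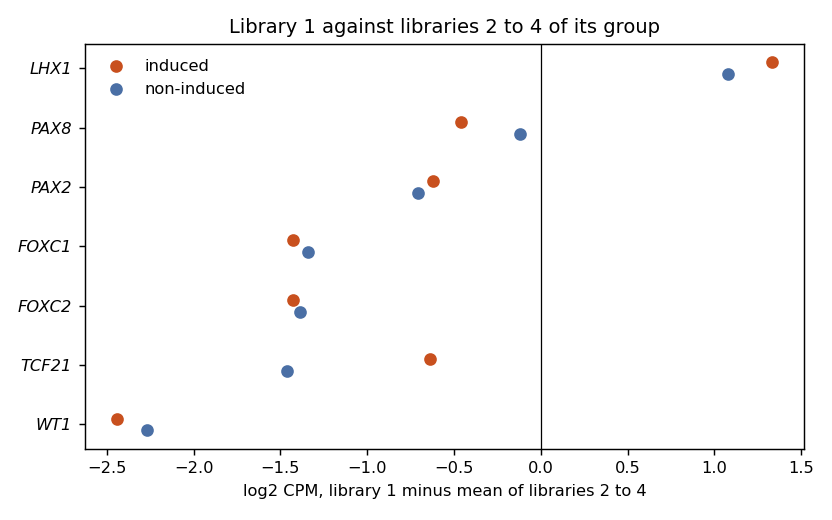
Log2 CPM of library 1 minus the mean log2 CPM of libraries 2 to 4, for induced (orange) and non-induced (blue) cells. WT1, FOXC1 and FOXC2 lie more than 1 log2 unit below 0 and LHX1 more than 1 above 0 in both groups.

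The factors also differed in how alike their profiles were over the 8 libraries, measured as the root mean square difference of centred log2 CPM. FOXC1 and FOXC2 were the closest pair at 0.129, and WT1 and LHX1 the farthest apart at 1.58. Among 14036 candidate genes, the nearest to PAX8 were PML at 0.0493, ECE1 at 0.062 and SNAI2 at 0.0634. Those nearest to PAX2 were SC5D at 0.123, ZNF69 at 0.129 and SYNC at 0.132.

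Nearest to WT1 were NKX6-1 at 0.187, CORO2B at 0.198 and ARHGDIB at 0.206. FOXC1 was nearest to CD99 at 0.0934, and FOXC2 to VSTM4 at 0.0808. LHX1 was nearest to SH2D3A at 0.0927, LHX1-DT at 0.11 and CTXN1 at 0.115. TCF21, at about 1 CPM, was nearest to ADGRB3 at 0.145. These profiles share the library 1 difference. Without the libraries numbered 1, ranks of the 3 nearest genes per factor ran from 5 (PML for PAX8) to 1721 (FLG for TCF21). For WT1, NKX6-1 was then at rank 178, CORO2B at 1097 and ARHGDIB at 1298. For LHX1, SH2D3A was at rank 41, LHX1-DT at 28 and CTXN1 at 13.

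Other lineage factors were read from the same fits, and without the block edgeR called 0 of the 108 distinct tested genes of the lists below. Of these 21 had an unadjusted p under 0.05, and DESeq2 without a block called 5. With the block edgeR called 35, against the background of 13.8%, and DESeq2 called 25. The lists were chosen with earlier results of these data known, so this share is a description only. Of 13 nephron progenitor factors 5 were tested, and with the block 1 rose, 1 fell and 3 did not pass, with a median log2 change of -0.06, against 0.0 over all tested genes. MEOX1, a mesenchymal homeobox factor, fell by 0.87 on the log2 scale, at 6.30 ± 3.02 CPM in induced and 11.5 ± 5.25 CPM in non-induced cells (edgeR adjusted p = 4.71e-05). HOXA11, a homeobox factor of the same list, rose by 0.38, at 16.1 ± 1.79 CPM in induced and 12.3 ± 1.27 CPM in non-induced cells (adjusted p = 0.0036). Both kept their call without each pair.

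Of 14 further podocyte factors 11 were tested, and 4 rose, 2 fell and 5 did not pass, with a median of 0.06. Over all tested genes 7.51% rose and 6.29% fell. KLF4, a Krüppel-like factor, rose by 0.53, at 35.6 ± 18.3 CPM in induced and 24.3 ± 10.9 CPM in non-induced cells (edgeR adjusted p = 6.9e-05). KLF6 fell by 0.28, at 218.3 ± 18.5 CPM in induced and 265.25 ± 18.9 CPM in non-induced cells (adjusted p = 0.000229). Without the libraries numbered 1, 1 rose and 2 fell, where 5.12% of tested genes rose and 5.79% fell. NR3C1, the glucocorticoid receptor, and TEAD1 rose by 0.18 and 0.23, but were then at adjusted p = 0.112 and 0.0862 and were lost without pair 4 too (0.11 and 0.0809).

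Of 24 tubule and duct factors 10 were tested, with 1 rise, 1 fall and a median of 0.02. Over all tested genes 7.51% rose and 6.29% fell. SOX9, a factor of the ureteric tip and of injured tubules, fell by 0.75, at 7.77 ± 4.09 CPM in induced and 12.8 ± 6.31 CPM in non-induced cells (edgeR adjusted p = 0.000315). MECOM rose by 0.33 (adjusted p = 0.0115), a call lost without pair 1 (0.053) or pair 4 (0.0699). Of 9 renal stroma factors 7 were tested and 1 rose. This was NR2F2, by 0.24 (adjusted p = 0.0344), lost without pair 1 (0.0821) or pair 4 (0.19). Without the libraries numbered 1, 0 tubule and duct factors rose and 2 fell, and of the stroma factors 0 rose and 1 fell. In that fit 5.12% of tested genes rose and 5.79% fell.

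Of 32 cofactors and partners of the factors 28 were tested, and 3 rose, 4 fell and 21 did not pass, with a median of 0.02. These 7 calls among 28 stand beside the 13.8% called over all tested genes. Without the libraries numbered 1 the counts were the same, beside 10.9% of tested genes called. CITED2, a coactivator that works with WT1 in the mouse gonad, had 369.6, 268.5, 289.4 and 321.6 CPM in induced libraries 1 to 4, against 234.8, 217.9, 219.6 and 194.5 CPM in non-induced libraries 1 to 4. Its log2 rise was 0.52 (edgeR adjusted p = 0.00609), and the groups did not overlap. Such a separation upwards was seen in 2.31% of the 31603 genes with at least 1 read, a set that includes genes too low to test.

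SSBP3, which joins LDB1 in complexes with LIM homeodomain proteins, fell by 0.48, at 27.5 ± 1.30 CPM in induced and 38.4 ± 3.40 CPM in non-induced cells (edgeR adjusted p = 0.000527). BASP1, a corepressor of WT1, fell by 0.37, at 60.7 ± 13.9 CPM in induced and 77.4 ± 8.85 CPM in non-induced cells (adjusted p = 0.00445). TCF12, an E protein that pairs with TCF21, rose by 0.21 (adjusted p = 0.0092), a call lost without pair 4 (0.0683). Of 23 paralogs of the factors 5 were tested and 1 was called, beside 13.8% of all tested genes. PAX6 rose by 0.17 (adjusted p = 0.0428), and this call was lost without each of the 4 pairs, at 0.0814 to 0.216.

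**Figure D5:**
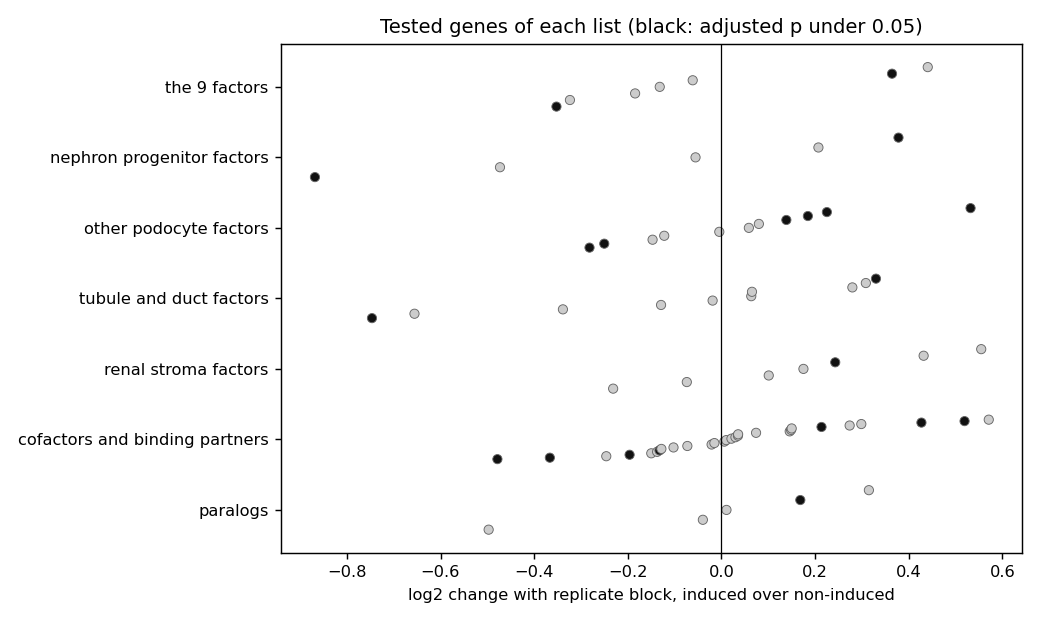
Log2 change with the replicate block, induced over non-induced, of the tested genes of 7 lists, in dark for those past the false discovery rate of 0.05 and in grey for the others. Each list holds values on both sides of 0. Among values past the threshold, MEOX1 at -0.87 and SOX9 at -0.75 are lowest and KLF4 at 0.53 and CITED2 at 0.52 highest.

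Genes described elsewhere as targets did not share 1 direction. Of 26 WT1 targets 15 were tested, and with the block 4 rose, 3 fell and 8 did not pass, with a median log2 change of 0.01. Over all tested genes 7.51% rose and 6.29% fell. EGFR rose by 0.45, at 299.95 ± 17.2 CPM in induced and 221.1 ± 34.2 CPM in non-induced cells (edgeR adjusted p = 0.00126), and PLCE1, a phospholipase of podocytes, by 0.46 (adjusted p = 0.00367). SNAI2 fell by 0.33, at 17.1 ± 2.26 CPM in induced and 21.5 ± 0.930 CPM in non-induced cells (adjusted p = 0.0079). CDKN1C, a cell cycle inhibitor of mature podocytes, fell by 0.30 (adjusted p = 0.00897), a call lost without pair 4 (0.0733). Without the libraries numbered 1, 2 rose and 4 fell, where 5.12% of tested genes rose and 5.79% fell.

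Of 14 PAX2 and PAX8 targets 8 were tested, and 3 rose, 1 fell and 4 did not pass, with a median of 0.13. Over all tested genes 7.51% rose and 6.29% fell. KIF26B, a kinesin family protein of the metanephric mesenchyme, rose by 0.58, at 21.0 ± 1.17 CPM in induced and 14.0 ± 1.67 CPM in non-induced cells (edgeR adjusted p = 0.000153). GDNF, the ligand that draws out the ureteric bud, fell by 0.43, at 32.7 ± 7.49 CPM in induced and 44.2 ± 11.8 CPM in non-induced cells (adjusted p = 0.00181). Its coreceptor GFRA1 rose by 0.20, at 804.6 ± 103.2 CPM in induced and 697.6 ± 56.0 CPM in non-induced cells (adjusted p = 0.00327). BCL2 rose by 0.38 (adjusted p = 0.034), but was lost without pair 1 (0.0678), pair 3 (0.182) or pair 4 (0.154). Without the libraries numbered 1, 2 rose and 1 fell, where 5.12% of tested genes rose and 5.79% fell.

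Of 10 LMX1B and FOXC targets 3 were tested and 0 passed with the block, where 2 had an unadjusted p under 0.05 and DESeq2 with the block called 0. CD2AP, a slit diaphragm adaptor, had a log2 change of 0.10 (edgeR adjusted p = 0.148).

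Markers of neighbouring cell types moved in the same comparison, in which the blocked fit called 7.51% of all tested genes higher and 6.29% lower. Of the 7 tested parietal epithelial markers, 4 fell and 1 rose with the block, and CLDN1 fell by 0.44, at 127.0 ± 20.4 CPM in induced and 171.3 ± 10.9 CPM in non-induced cells (edgeR adjusted p = 0.000532), a call kept without each pair. The keratins KRT18 and KRT8 fell by 0.14 and 0.12 (adjusted p = 0.0165 and 0.0342). KRT18 was lost without pair 3 (0.124) or pair 4 (0.0568), and KRT8 without pair 2 (0.0936), pair 3 (0.216) or pair 4 (0.0864). CD24, the marker that rose, did so by 0.60 (adjusted p = 0.0328) and was lost without pair 3 (0.118) or pair 4 (0.116). Of the 7, 5 fell and 1 rose without the libraries numbered 1, where 5.79% of tested genes fell and 5.12% rose. Of the 7 tested podocyte markers 1 rose and 1 fell, namely PODXL by 0.49 (adjusted p = 0.035, lost without pair 1 at 0.0874, pair 2 at 0.0864 and pair 4 at 0.155) and CDKN1C. Mesangial and stromal markers had 1 rise of 3 tested, PDGFRB by 0.34 (adjusted p = 0.0299, lost without pair 1 at 0.119, pair 3 at 0.104 and pair 4 at 0.161). Leaving out the libraries numbered 1, 0 podocyte markers rose and 1 fell, and 0 mesangial and stromal markers passed.

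Tubule markers had 2 of 11 tested, endothelial markers 2 of 6 and leukocyte markers 3 of 5, and edgeR with the block called 0 in each. Unadjusted p-values under 0.05 were seen for 1, 0 and 2 of them, and DESeq2 with the block called 0. The blocked fit without the libraries numbered 1 called 1 tubule marker, EPCAM, higher (adjusted p = 0.0221) and 1 leukocyte marker, CSF1R, lower (adjusted p = 0.0266). The summed level was 2.23 to 5.60 CPM in induced and 2.98 to 5.60 CPM in non-induced cells for endothelial markers. For leukocyte markers it was 2.19 to 2.94 CPM in induced and 3.41 to 3.92 CPM in non-induced cells. The part of these markers in the PAX2, PAX8 and DACH1 differences was not tested.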

How the data were processed

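RNA from 8 libraries was sequenced as single reads of 75 bases with a directional kit, per the labels' protocols. The authors deposited raw read counts per Ensembl gene, whole numbers with no normalization, and a normalized table that was not used here. Trimmomatic 0.38, HISAT2 2.1.0, HTSeq 0.11.1 and DESeq2 1.24.0 were listed, without roles, per the submitters' processing notes, with the builds hg38 and GRCh38. How reads were assigned by strand, and which annotation release was used, is not given in the sources used here.

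Of 58395 genes, 58275 matched GENCODE release 29, which gave positions and lengths. Genes with too few reads were removed by filterByExpr (minimum count 10), leaving 15637. Counts were scaled by TMM and compared by edgeR 4.0.16's quasi-likelihood test (R 4.3.3, robust, two-sided, Benjamini-Hochberg over all tested genes), with induction as the term. CPM uses TMM-scaled totals, and log2 CPM has a prior count of 2. Single factors had an exact permutation test over 70 labelings. Ratios of summed reads have exact binomial (Clopper-Pearson) intervals, which cover counting error only.

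The labels give both groups the numbers 1 to 4 without saying what they mark. Deviations from group means correlated between same-numbered libraries at 0.911, 0.704, 0.707 and 0.648 across 11502 genes. Each induced library correlated best with the non-induced library of its own number. The highest correlation with another number was -0.647, 0.667, 0.602 and 0.433 for induced libraries 1 to 4, so the match of library 2 was narrow. Both libraries numbered 1 stand apart, which by itself raises the correlations of the remaining libraries. The numbers were taken to pair the libraries, and a fit with the number as a block is given where it changes a call.

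The factors and lists were chosen with earlier results of these data known. Named were all factors, genes overlapping them or starting within 1 kb, CRB2, up to 4 called genes per list (or 2 where none was called) by the smallest p with the block, the 3 nearest profiles per factor (mean of 1 CPM or more), and defining markers. Alternatives were the block, each library or pair left out, DESeq2 1.42.0, other scalings, filters, dispersion and thresholds. Values of some genes that this rule names are not reported here.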

Additional observations from a re-analysis of the deposited data

Results flagged for a closer look

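In 25 groups of 4 libraries, from 13 genes, 3 held a library far from the others of its group by Dixon's criterion, where chance gives about 1 in 20 groups. FOXC2 was at 6.12 CPM in non-induced library 1, against 15.9 to 16.6 CPM in the other non-induced libraries. CRB2 was at 1733.5 CPM in induced library 1, against 4252 to 4599 CPM in the other induced libraries. FOXC2-AS1 was at 0.304 CPM in induced library 1, against 0.840 to 0.919 CPM in the other induced libraries. In each case the separate library was numbered 1.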

How the results depend on the processing

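edgeR without the block called 6 genes and 0 of the factors. With the replicate block it called 2159 genes and 2 factors, or 2150, 2208, 2199 and 2067 genes and 2 factors with RLE scaling, upper quartile scaling, library totals or no robust estimation. Leaving out pair 1, 2, 3 or 4 from the blocked fit gave 1721, 1969, 1254 or 909 genes and 1 to 2 factors. With the block and no filter there were 2711 genes and 3 factors, DACH1 being the third, and with the block at a false discovery rate of 0.01 there were 895 genes and 1 factor. DESeq2 called 241 genes without and 1115 with the block, and with it 2 factors. Without the block, no filter gave 37 genes and a rate of 0.01 gave 3. Leaving out 1 library gave 3 to 16 genes and 0 factors, and leaving out both libraries numbered 1 gave 543 genes and 1 factor, PAX8.

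Unblocked log2 changes turned sign when 1 library was left out for WT1 (-0.64 to 0.02), FOXC1 (-0.43 to 0.06), FOXC2 (-0.37 to 0.12), LHX1 (-0.48 to 0.33), LHX1-DT (-0.57 to 0.39), CD24 (-0.13 to 1.35) and EPCAM (-0.0015 to 0.31). These were 13 reversals, and 0 came from other alternatives. The cause was not tested. PAX2 stayed at 0.20 to 0.51 and PAX8 at -0.41 to -0.24. The pairing changed the calls of PAX2 and PAX8, and with no filter that of DACH1. DACH1, LMX1B and TCF21 had 31 reads or fewer in any library, so their values carry the widest counting error of the factors.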
